A study of Mus musculus with 8 samples.

Results

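The Hedgehog pathway was followed here through 9 genes chosen by name, namely the receptor and transducer genes Ptch1 and Smo, the coreceptor genes Boc, Cdon and Gas1, the inhibitor gene Sufu and the transcription factor genes Gli1, Gli2 and Gli3. All 9 had a row in the authors' deposited table, which holds 15540 genes. The table compares RNA labelled as tongue epithelium between 2 groups of C57BL/6 mice that all carry K14-rtTA and TRE-FLBmi-1, together named KrTB. Mice of the KrTB group (4 libraries) drank plain water, and mice of the KrTB+DOX group (4 libraries) drank water with doxycycline at 2 mg/mL. The rtTA transactivator is made under the keratin 14 promoter, which works in basal keratinocytes, and in the presence of doxycycline it turns on the Bmi-1 construct behind TRE. Both groups carry the transgenes and doxycycline was given to 1 of them, so effects of doxycycline and of the construct cannot be told apart. The sources used here give neither the ages of the mice nor the length of treatment.

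In Hedgehog signalling, a secreted ligand such as Sonic hedgehog binds Patched, with help from the coreceptors Boc, Cdon and Gas1, and so frees Smoothened from inhibition at the primary cilium. Active Smoothened releases the Gli proteins from Sufu. Gli2 is the main activator, Gli3 works largely as a repressor, and Gli1 is itself a target gene that adds to the activation. In the tongue, Sonic hedgehog made in the papillae and taste buds signals to surrounding epithelium and stroma and is needed to maintain taste buds. Bmi1, a subunit of Polycomb repressive complex 1, has been placed downstream of Hedgehog signalling in mouse cerebellar precursor cells.

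The table carries no column for single libraries, whose depth and spread are therefore unknown, and whether the groups overlap for a gene cannot be said. The table gives for each gene a log2 fold change (KrTB+DOX over KrTB, called the log2 ratio below) and a mean over all libraries. That mean was read as log2 CPM (log2 of read counts scaled to library size). The t, p and adjusted p were read as limma's moderated statistics. A gene was called at a Benjamini-Hochberg adjusted p under 0.05. Of all genes in the authors' deposited table, a share of 8.13% was called, 3.82% as higher and 4.31% as lower in KrTB+DOX. At an unadjusted p under 0.05, 3923 of the 15540 genes passed, which is the background for each such count below. The table names no sign, and a positive fold change was read as higher in KrTB+DOX because Bmi1, the gene of the construct, had a log2 ratio of 5.42 (SE 0.10, limma adjusted p = 4.5e-09) in the authors' deposited table. Group levels below were derived as the mean plus or minus 0.5 times the log2 ratio, which holds for equal groups if libraries were weighted equally.

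Gli2 was higher with doxycycline, and none of the other 8 members passed the test. Gli2 stood at 9.97 CPM in KrTB and 19.9 CPM in KrTB+DOX as derived from the authors' deposited table, a 1.99-fold difference. Of the 9 members 1 was called higher and 0 lower by limma, which is 11.1% of them beside the 3.82% called higher among all genes. With 9 genes that is a difference of a single gene, and it describes Gli2 rather than the pathway. The median log2 ratio of the members was 0.06, beside -0.01 for all genes, and 5 members lay above 0 and 4 below it in the authors' deposited table. At an unadjusted p under 0.05, Gli2 was still the single member that passed, beside 3923 of the 15540 genes.

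**Figure D1:**
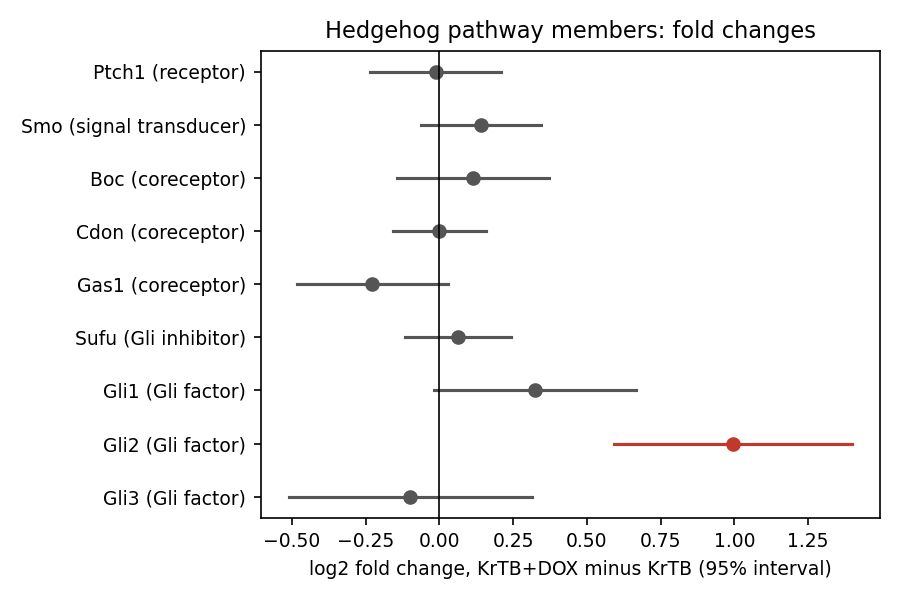
Log2 ratio of each of the 9 genes (points) with its 95% interval (lines), KrTB+DOX minus KrTB, in red where called and grey where not. The interval of Gli2 runs from 0.59 to 1.40, while the other 8 intervals all include 0.

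The Gli genes, which encode the zinc finger transcription factors at the end of the pathway, differed in their values. Gli2, the main activator, occupies positions 118834132 to 119053619 of chromosome 1 (minus strand, GRCm38, ENSMUSG00000048402.14). Its log2 ratio in the authors' deposited table was 0.995 (SE 0.18, 95% interval 0.59 to 1.40, limma adjusted p = 0.0123), and it ranked 343rd of the 15540 genes by p. The lower end of its interval is a 1.51-fold and the upper end a 2.63-fold difference. Tested against a fold change of 1.2 in place of no change, Gli2 no longer passed (adjusted p = 0.0699), nor did it with the stricter Benjamini-Yekutieli adjustment (adjusted p = 0.126).

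Gli1, an activator that is transcribed in response to the pathway and so serves as its common readout, occupies positions 127329882 to 127341974 of chromosome 10 (minus strand, ENSMUSG00000025407.7). It stood at 13.0 CPM in KrTB and 16.3 CPM in KrTB+DOX as derived from the authors' deposited table. The log2 ratio of Gli1 in the authors' deposited table was 0.32 (SE 0.15, 95% interval -0.02 to 0.67, limma adjusted p = 0.218), so it did not pass, although a rise of up to 1.59-fold lies within the interval. On the other strand Gli1 overlaps the antisense gene Gm47200 by 9584 bp, which had no value here, and Arhgap9 by 62 bp. Arhgap9 had a log2 ratio of 0.30 (SE 0.20, limma adjusted p = 0.372) in the authors' deposited table. No source used here gives the strand setting of the counting, and without it reads of such a pair cannot be told apart.

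Gli3, the factor that acts largely as a repressor, occupies positions 15463235 to 15730026 of chromosome 13 (plus strand, ENSMUSG00000021318.15). It stood at 8.20 CPM in KrTB and 7.66 CPM in KrTB+DOX as derived from the authors' deposited table, with a log2 ratio of -0.10 (SE 0.18, 95% interval -0.51 to 0.31, limma adjusted p = 0.78). The SE of Gli3 was close to that of Gli2, and a change of 0.69 on the log2 scale would have been needed for a call of Gli3. The intervals of Gli2 and Gli3 do not overlap, whereas those of Gli2 and Gli1 do. A test of the difference between genes needs values per library and was not run.

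Promoter windows from RefSeq (GRCm38.p6, 250 bases before to 50 after the annotated start) were matched by symbol for 7 of the 9 members, namely Gli2, Gli3, Ptch1, Smo, Cdon, Gas1 and Sufu. The windows of Gli2, the gene that rose, and of its relative Gli3, which was not called, are shown because CpG-rich start regions are typical of developmental regulators that Polycomb complexes bind. CpG dinucleotides are in capitals, and both sequences run 5′ to 3′ on the strand of the gene.
Gli2, chr1:119053570-119053869, minus strand: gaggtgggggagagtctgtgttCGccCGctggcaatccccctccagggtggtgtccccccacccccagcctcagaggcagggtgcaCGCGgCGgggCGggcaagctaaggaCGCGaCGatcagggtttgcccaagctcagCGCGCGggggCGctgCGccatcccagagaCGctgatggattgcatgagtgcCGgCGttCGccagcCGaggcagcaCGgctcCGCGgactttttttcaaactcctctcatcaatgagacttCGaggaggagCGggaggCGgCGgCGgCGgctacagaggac
Gli3, chr13:15463473-15463772, plus strand: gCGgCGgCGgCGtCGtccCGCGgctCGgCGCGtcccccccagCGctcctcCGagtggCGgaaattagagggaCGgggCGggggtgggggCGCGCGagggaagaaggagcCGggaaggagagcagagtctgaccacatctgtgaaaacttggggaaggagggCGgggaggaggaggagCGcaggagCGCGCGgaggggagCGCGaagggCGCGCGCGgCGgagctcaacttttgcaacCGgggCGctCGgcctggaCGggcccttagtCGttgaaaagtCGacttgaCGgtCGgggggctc
The Gli2 window held 28 CpG and 67.3% G+C and the Gli3 window 39 CpG and 71.0% G+C, beside medians of 7 CpG and 52.7% over all 32851 windows. CpG density was high in both windows. Polycomb binding was not measured, and a link between CpG density and the values of Gli2 and Gli3 was not tested. Ptch1 had the most CpG of the 7 members, at 47, and Cdon the fewest, at 3, and their windows, like that of Gli3, are at RefSeq starts that lie inside the gene as GENCODE annotates it. The Gli binding motif GACCACCCA, searched on both strands, was found in 0 of the 7 members' windows and in 0.253% of all windows. With up to 1 mismatch it was again found in 0 of the 7, beside 6.74% of all windows. No match says only that these letters are not in these windows.

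**Figure D2:**
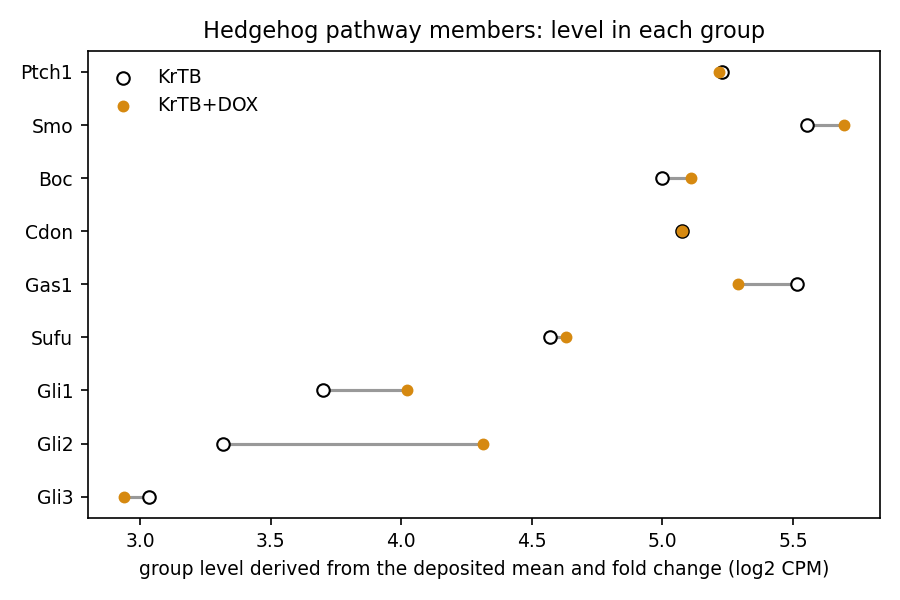
Level of each gene in KrTB (open circles) and KrTB+DOX (filled circles) in log2 CPM, derived from the deposited mean and fold change, with no error drawn. Gli2 is at 3.32 in KrTB and 4.31 in KrTB+DOX, and the other genes lie closer together.

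Reception of the ligand showed no called gene. Ptch1 encodes the receptor that holds Smoothened inactive and is, like Gli1, a classical target gene of the pathway. It occupies positions 63508328 to 63573598 of chromosome 13 (minus strand, ENSMUSG00000021466.12). Ptch1 stood at 37.5 CPM in KrTB and 37.2 CPM in KrTB+DOX as derived from the authors' deposited table. Its log2 ratio in the authors' deposited table was -0.01 (SE 0.10, 95% interval -0.23 to 0.21, limma adjusted p = 0.956). As a ratio of KrTB+DOX to KrTB, the interval of Ptch1 spans 0.850 to 1.16.

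Smo encodes Smoothened, the membrane protein that passes the signal on, and occupies positions 29735503 to 29761365 of chromosome 6 (plus strand, ENSMUSG00000001761.7). It stood at 47.0 CPM in KrTB and 51.8 CPM in KrTB+DOX as derived from the authors' deposited table. The log2 ratio of Smo in the authors' deposited table was 0.14 (SE 0.09, 95% interval -0.06 to 0.34, limma adjusted p = 0.364).

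Among the coreceptors, Gas1 leaned down and Boc and Cdon lay close to 0, all without a call. Gas1, a membrane-anchored protein that binds the ligand (chromosome 13 from 60174405 to 60177365, minus strand), stood at 45.7 CPM in KrTB and 39.1 CPM in KrTB+DOX as derived from the authors' deposited table. Its log2 ratio in the authors' deposited table was -0.23 (SE 0.11, 95% interval -0.48 to 0.03, limma adjusted p = 0.248). Boc and Cdon are related immunoglobulin superfamily proteins of the cell surface. Boc (chromosome 16 from 44485049 to 44558897, minus strand) stood at 31.9 and 34.6 CPM as derived from the authors' deposited table, with a log2 ratio of 0.11 (SE 0.12, 95% interval -0.14 to 0.37, limma adjusted p = 0.575). Cdon (chromosome 9 from 35421128 to 35507652, plus strand) stood at 33.7 CPM in each group as derived from the authors' deposited table. The 95% interval of Cdon, -0.16 to 0.16, was the narrowest of the 9 members.

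Sufu, which holds Gli proteins in the cytoplasm and favours their processing to repressors, occupies positions 46396896 to 46488804 of chromosome 19 (plus strand, ENSMUSG00000025231.17). It stood at 23.7 CPM in KrTB and 24.8 CPM in KrTB+DOX as derived from the authors' deposited table. The log2 ratio of Sufu in the authors' deposited table was 0.06 (SE 0.08, 95% interval -0.12 to 0.24, limma adjusted p = 0.668). The 95% intervals of 8 members lay within a 2-fold change in either direction and those of 7 within a 1.5-fold change, Gli1 being the member inside the wider bound and outside the narrower.

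**Figure D3:**
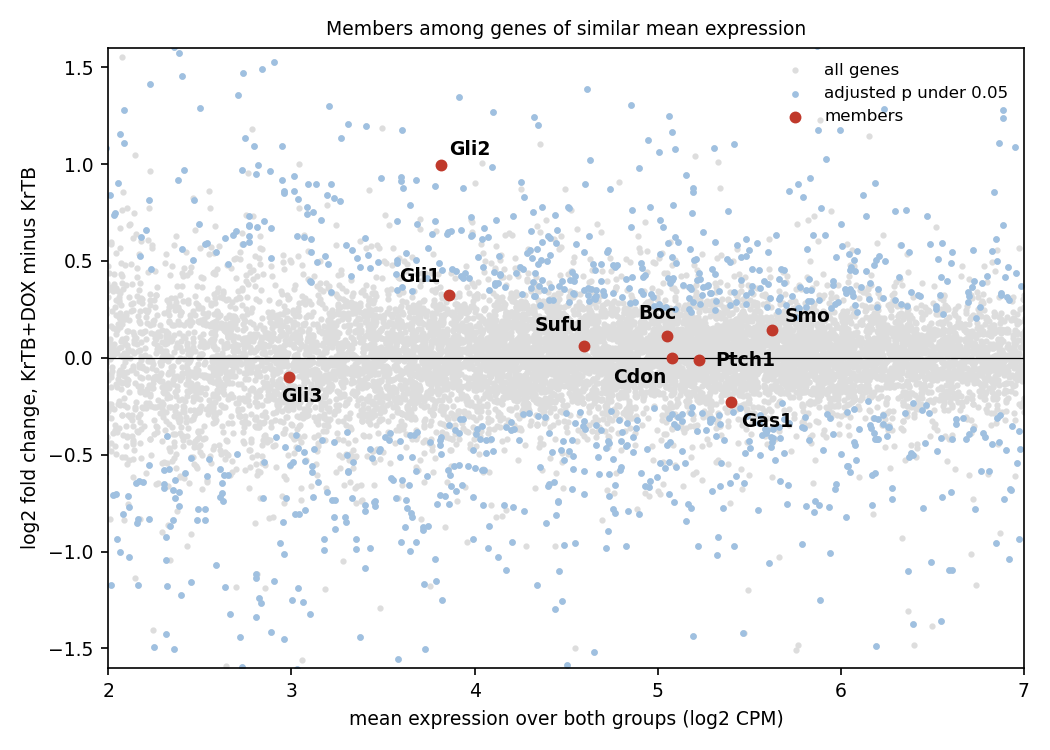
Fold change against mean expression for 10585 genes with a mean from 2 to 7 log2 CPM and a fold change within 1.6 on the log2 scale either way, in grey or, where called, blue, with the 9 members in red. Gli2 lies among the called genes with positive fold changes, and the other members lie within the grey band around 0.

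Compared per length, on the scale of mean log2 CPM per kb of exon over both groups, the members ran from Gas1 at 3.84 through Smo (3.13), Boc (2.90), Cdon (2.13), Sufu (1.66), Gli1 (1.54), Ptch1 (1.40) and Gli2 (1.04) to Gli3 at -0.27. An SE of each mean was derived as the SE of the fold change times 0.5. By this measure the steps from Sufu to Gli1 and from Gli1 to Ptch1 were within 2 SE of the difference, while the other steps were larger. This SE treats genes measured in the same libraries as independent and leaves out error in the lengths. The steps are therefore given as a description and were not tested. Counting the longest transcript in place of all exons exchanged Cdon with Sufu and Gli1 with Ptch1 in the order. On the plain log2 CPM scale the members' means lay between 2.99 for Gli3 and 5.62 for Smo in the authors' deposited table.

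Around the members, 6 lists of pathway genes were counted, for ligands, reception, Gli factors, the cilium, targets and related zinc finger genes. Over the lists together, 105 of 117 genes had a value, of which 5 were called higher and 1 lower, which is 4.76% higher and 5.71% called in either direction, beside 8.13% among all genes. These shares lie near the background or below it. At an adjusted p under 0.1 the counts were 8 higher and 5 lower of 105, beside 1148 higher and 1199 lower of the 15540 genes. Against a fold change of 1.2 they were 1 higher and 0 lower, the 1 being Sox9, beside 104 higher and 118 lower among all genes.

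Genes for making and releasing the ligand held 0 called members of 7 measured by limma, beside 8.13% called among all genes. With so few genes, a count of 0 lies near that share. Of the 7, 1 had an unadjusted p under 0.05. The ligand genes Shh and Ihh had no value here. Dhh, for Desert hedgehog, stood at 2.98 CPM in KrTB and 2.88 CPM in KrTB+DOX as derived from the authors' deposited table. Disp1, which encodes the transporter that releases the ligand, had the smallest p of the list (log2 ratio -0.29, SE 0.12, limma adjusted p = 0.153) in the authors' deposited table. Scube3, a secreted carrier of its family, followed at 0.84 (SE 0.43, limma adjusted p = 0.253) in the authors' deposited table.

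Among reception genes and antagonists 0 of 8 measured genes were called, beside 8.13% among all genes, and so few genes put 0 near that share. By limma, 1 of the 8 had an unadjusted p under 0.05. That gene was Gpc3, a glypican that binds Hedgehog ligands and competes with Patched, with a log2 ratio of -0.37 (SE 0.11, limma adjusted p = 0.0622) in the authors' deposited table. Hhip encodes an antagonist that traps the ligand and is itself a target gene of the pathway. Hhip had a log2 ratio of -0.41 (SE 0.33, limma adjusted p = 0.475) in the authors' deposited table. Gli1, Ptch1 and Hhip are target genes often read as a measure of Hedgehog signalling. Of them 0 passed by limma, beside 8.13% of all genes, and 0 had an unadjusted p under 0.05. The interval of Hhip (-1.15 to 0.33) is wide and includes a 2-fold decrease.

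Among the Gli factors and their direct regulators, 1 gene of 26 was higher, Gli2, and 1 was lower, Btrc. Each is 3.85% of the list, beside 3.82% higher and 4.31% lower among all genes. Btrc encodes the F-box protein beta-TrCP, which marks phosphorylated Gli proteins, beta-catenin and other proteins for ubiquitination. It stood at 30.7 CPM in KrTB and 22.8 CPM in KrTB+DOX as derived from the authors' deposited table, with a log2 ratio of -0.43 (SE 0.09, limma adjusted p = 0.0229). Btrc did not pass against a fold change of 1.2 (adjusted p = 0.594) or with the Benjamini-Yekutieli adjustment (adjusted p = 0.234). The kinase gene Dyrk2 (log2 ratio 0.26, SE 0.10, limma adjusted p = 0.147) had the next smallest p in the authors' deposited table. The 24 genes of this list that were not called had log2 ratios between -0.36 for Efcab7, a ciliary partner of the Evc proteins, and 0.32 for Gli1 in the authors' deposited table.

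Genes of the primary cilium, the organelle in which the signal is passed on, held 0 called of 43 by limma, beside 8.13% among all genes. Of the 43, 5 had an unadjusted p under 0.05, a smaller share than the 3923 of 15540 among all genes. The median log2 ratio of the list was -0.11, beside -0.01 for all genes. Of its genes 31 (72.1%) lay below 0, beside 51.2% of all genes. The smallest p values belonged to Tulp3, an adaptor for transport into the cilium (log2 ratio 0.22, SE 0.06, limma adjusted p = 0.0602), and the planar polarity gene Intu (-0.47, SE 0.14, limma adjusted p = 0.069) in the authors' deposited table. These genes are not independent of each other, and the shift is given as a description.

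**Figure D4:**
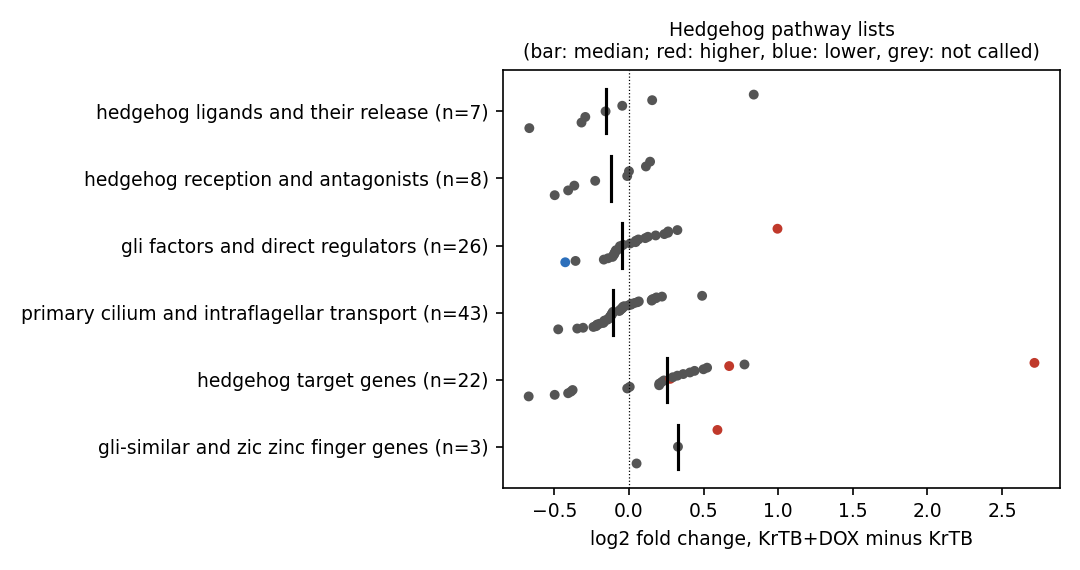
Log2 ratios (KrTB+DOX minus KrTB) of the measured genes of 6 pathway lists, 1 point a gene, with the median of each list as a bar. Red points mark called higher genes and the blue point Btrc; the medians run from -0.16 for the ligand list to 0.33 for the 3 Gli-similar genes.

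Of 22 measured genes of a list of Hedgehog targets 3 were called higher and 0 lower, which is 13.6% higher beside 3.82% among all genes. The list had a median log2 ratio of 0.25, beside -0.01 for all genes. These targets are shared with other pathways. Sox9, a transcription factor gene of many epithelial progenitors, rose 6.58-fold (log2 ratio 2.72, SE 0.25, limma adjusted p = 0.001) in the authors' deposited table, from 1.90 to 12.5 CPM. The D cyclin genes Ccnd1 (log2 ratio 0.67, SE 0.10, limma adjusted p = 0.00464) and Ccnd2 (0.28, SE 0.07, limma adjusted p = 0.0339), whose products drive entry into the cell cycle, rose as well in the authors' deposited table. Against a fold change of 1.2, Ccnd1 had an adjusted p of 0.0581 and Ccnd2 did not pass either, and Ccnd2 also lost its call with the Benjamini-Yekutieli adjustment (adjusted p = 0.347). The Notch ligand gene Jag2 (log2 ratio 0.23, adjusted p = 0.0828) and the mitotic regulator gene Foxm1 (0.44, adjusted p = 0.0842) came next without passing in the authors' deposited table. Bcl2, a survival gene, had a log2 ratio of 0.20 (SE 0.11, limma adjusted p = 0.279), and the stromal Hedgehog targets Foxf1 (0.36, SE 0.17, limma adjusted p = 0.224) and Foxf2 (0.22, SE 0.11, limma adjusted p = 0.252) were not called in the authors' deposited table.

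Of the Gli-similar and Zic genes, which carry related zinc fingers, 3 of 8 had a value. Glis3 rose from 2.21 to 3.34 CPM as derived from the authors' deposited table (log2 ratio 0.59, SE 0.13, limma adjusted p = 0.0266). Glis1 (log2 ratio 0.33, adjusted p = 0.556) and Glis2 (0.05, adjusted p = 0.873) stood without a call in the authors' deposited table. Glis3 lost its call against a fold change of 1.2 (adjusted p = 0.31) and with the Benjamini-Yekutieli adjustment (adjusted p = 0.273).

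The labelled tissue was checked by its markers. The keratins of tongue surface epithelium were abundant, with means of 13.98 log2 CPM for Krt13 and 13.88 for Krt4 in the authors' deposited table. Markers of stroma and muscle were present beside them. In KrTB, 8 skeletal muscle markers summed to 38084 CPM and 6 suprabasal keratinocyte markers to 36530 CPM, so the RNA was not of epithelium alone. In bulk RNA, fewer cells of a type and less RNA per cell cannot be told apart. Fibroblasts are known to express Gas1, Boc, Cdon, Gli2 and Gli3 in many organs. Of 10 fibroblast markers 0 were called higher and 5 lower, which is 50% lower beside 4.31% among all genes. Their median log2 ratio was -0.72, beside -0.01 for all genes. The summed level of these 10 markers was 3083 CPM in KrTB and 1577 CPM in KrTB+DOX as derived from the authors' deposited table. Much of the summed difference came from collagen genes, with Col3a1 at 1123 CPM in KrTB and 270 CPM in KrTB+DOX. Dcn stood at 733 CPM in KrTB and 660 CPM in KrTB+DOX. Col3a1 (log2 ratio -2.05, SE 0.26), Col1a2 (-1.31, SE 0.18) and Lum (-0.83, SE 0.16) were among the 5 lower genes, while the abundant marker Dcn (-0.15, SE 0.14, limma adjusted p = 0.518) and Pdgfra (-0.44, SE 0.20, limma adjusted p = 0.209) were not called in the authors' deposited table. Dpt (-0.61, limma adjusted p = 0.0556) was not called either, and Fbln1 (0.04) and Pi16 (0.16) lay above 0 in the authors' deposited table. With the Benjamini-Yekutieli adjustment or against a fold change of 1.2, 2 of the 5 calls were left, Col3a1 and Col1a2. The part of these markers in the values of the members was not tested.

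Of 7 basal keratinocyte markers 2 were called higher and 0 lower, which is 28.6% higher beside 3.82% among all genes. They had a median log2 ratio of 0.40, and a summed level of 4942 CPM in KrTB and 7059 CPM in KrTB+DOX as derived from the authors' deposited table. Trp63, the p63 gene of basal cells (log2 ratio 0.78, SE 0.16, limma adjusted p = 0.0202), and Krt15 (0.54, SE 0.14, limma adjusted p = 0.0452) were the called genes, and Krt5 (0.40, adjusted p = 0.181) and Krt14 (0.80, adjusted p = 0.11) were not called in the authors' deposited table. Itgb4 (0.15), Col17a1 (0.13) and Itga6 (-0.03) lay near 0 without a call in the authors' deposited table, and much of the summed difference came from Krt14 and Krt5. With the Benjamini-Yekutieli adjustment or against a fold change of 1.2, 0 of the 7 were called. The part of these markers in the value of Gli2 was not tested. Of 6 suprabasal markers 0 were higher and 1 lower, Sprr3 (log2 ratio -2.19, SE 0.43), with a list median of -0.27. That single gene is 16.7% of the list, beside 4.31% called lower among all genes. Krt78 (-0.32), Krt13 (-0.29) and Krt4 (-0.25) lay below 0 and Ivl (0.54) and Crnn (0.26) above it without a call in the authors' deposited table. Sprr3 lost its call with the Benjamini-Yekutieli adjustment (adjusted p = 0.185) and against a fold change of 1.2 (adjusted p = 0.0518).

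Taste buds, a source of Sonic hedgehog in the tongue, were measured weakly. Of 8 taste bud markers with a value 2 were higher (25%) and 1 lower (12.5%), beside 3.82% higher and 4.31% lower among all genes. Trpm5 and Gnat3 had no value here. Krt18 (log2 ratio 2.09, SE 0.25) and Krt8 (1.68, SE 0.44) rose and Prox1 was lower (-0.52, SE 0.12) in the authors' deposited table, whereas the phospholipase gene Plcb2 of taste receptor cells had a value of -0.05 (SE 0.23). Prox1 lost its call when the median of genes of similar mean expression was subtracted (adjusted p = 0.0539). With the Benjamini-Yekutieli adjustment or against a fold change of 1.2, Krt18 was the single marker of this list still called. The taste receptor gene Tas1r1 had the lowest value of the list (-1.47, SE 0.44) and was not called (limma adjusted p = 0.0707) in the authors' deposited table. Itpr3, the calcium channel gene with the highest mean of this list, was not called (log2 ratio 0.39, limma adjusted p = 0.0577) in the authors' deposited table. Krt8 and Krt18 also mark other simple epithelia, and their means were low, -1.19 log2 CPM for Krt8 and 0.76 for Krt18 in the authors' deposited table. Without genes under 1 log2 CPM neither was tested, and 0 markers of this list were called higher. Skeletal muscle markers were abundant, with a summed level of 38084 CPM in KrTB and 32352 CPM in KrTB+DOX over 8 genes as derived from the authors' deposited table. Of the 8, 0 were called by limma, beside 8.13% of all genes, and 2 had an unadjusted p under 0.05. The fast myosin gene Myh4 had the highest mean of them, 13.6 log2 CPM, in the authors' deposited table. The endothelial (1 of 6 lower, Cdh5), Schwann cell (0 of 6 called by limma, beside 8.13% of all genes, 1 at an unadjusted p under 0.05) and leukocyte (1 of 5 lower, Cd68) lists had median log2 ratios of 0.01, -0.37 and -0.14. The shares called lower were 16.7% of endothelial and 20% of leukocyte markers, a single gene each, beside 4.31% among all genes.

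**Figure D5:**
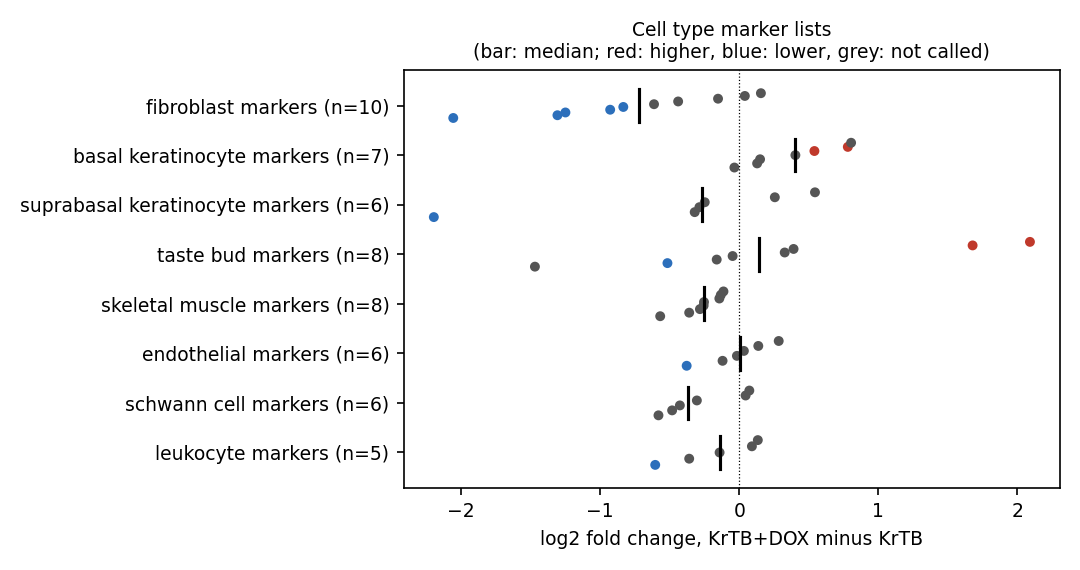
Log2 ratios (KrTB+DOX minus KrTB) of the measured markers of 8 cell types, 1 point a gene, with the list median as a bar. Fibroblast markers lie mostly below 0 (median -0.72) and basal keratinocyte markers mostly above it (median 0.40), in red where called higher, blue where called lower and grey where not called.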

How the data were processed

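Total RNA of tongue epithelium was made into stranded poly(A)-selected libraries, per the labels' protocols. GRCm38, STAR 2.5.2b, HTSeq 0.11.2, cutadapt and bcl2fastq 2.20 are listed without roles or settings in the submitters' processing notes. The values used are the authors' deposited comparison table, with 15540 genes and 0 columns per library. Its log2 fold changes and log2 CPM means, its moderated t score and its p-values are limma's, per the file headers. No source used here gives the authors' low-count filter, their design formula or a limma version.

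The SE was computed as fold change divided by t. The 95% intervals used 9.76 degrees of freedom, found from the deposited t and p. Recomputed adjusted p-values differed from the deposited ones by at most 6.4e-15. Calls used an adjusted p under 0.05. The 9 members and the gene lists were chosen with earlier results of these data known. Named genes were all members, the called genes of each pathway list, the next by p, and the most abundant or called cell type markers. Dhh, Hhip, Efcab7, Bcl2, Foxf1, Foxf2, Pdgfra, Dpt, Fbln1, Pi16, Itga6, Itgb4, Col17a1, Krt78, Ivl, Crnn, Tas1r1, Arhgap9 and Gm47200 were named beyond that rule or after their values were seen. Grk2 was matched by its older symbol. Gene positions and exon lengths came from GENCODE M21 on GRCm38. Computation used Python 3.11.15, pandas 2.3.3 and SciPy 1.17.1, and the calling steps were tested on simulated data. The labels describe 4 biological replicates per group. Some genes of the lists are not reported here by name. Alternatives were other thresholds, adjustments, filters and centrings.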

Additional observations from a re-analysis of the deposited data

How the results depend on the processing

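Over 6 alternatives (54 values for the 9 members), 51 kept their direction and their side of the threshold. Gli2 stood at 0.995 without a call under the Benjamini-Yekutieli adjustment (adjusted p = 0.126) and against a fold change of 1.2 (adjusted p = 0.0699), each of which left 0 members called. Under the other 4 its adjusted p lay between 0.0111 and 0.0123. Cdon, at -0.0004, turned to 0.0056 when the median of all genes (-0.01) was subtracted. The pathway lists held 5 higher and 1 lower genes. These counts were 8 and 5 at an adjusted p under 0.1, 2 and 0 with Benjamini-Yekutieli, and 1 and 0 against a fold change of 1.2. Without genes under 1 log2 CPM, Krt8 and Krt18 were not tested. Among all genes, 1263 calls became 2347, 147 and 222 under these 3 settings. The stricter settings call fewer genes by construction. Leaving out each replicate was not run, since the table holds no values per library. No paired analysis was possible because the table carries no library columns. Precision was limited by the SE, which ran from 0.07 to 0.18 among members, so that a call needed a change of at least 0.26 (Cdon) to 0.69 (Gli3) on the log2 scale.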
